A study of Mus musculus with 29 samples.

Results

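Costimulatory and checkpoint molecules that antigen-presenting cells show to T cells were described through 7 genes chosen by name: the PD-1 ligands Cd274 (PD-L1) and Pdcd1lg2 (PD-L2), the B7 ligands Cd80 (B7-1) and Cd86 (B7-2), the TNF receptor family member Cd40, the TNF family ligand Tnfsf8 (CD30 ligand), and the checkpoint receptor Havcr2 (TIM-3). They were 7 of the 27827 genes in the deposited tables, and all 7 were listed in each of the 29 library tables. Transcripts of single cells had been counted by Drop-seq, a droplet method, in cells sorted from brain (CD45high leukocytes, microglia and endothelial cells) and in leukocytes from peripheral blood of C57BL/6J mice after stroke, made by blocking a middle cerebral artery for a time, or after sham surgery. The authors had given each cell a parent type and a subtype. Young mice were males of 8 to 10 weeks, with 4 brain libraries each for sham at day 2, stroke at day 2 and stroke at day 14, and 4, 4 and 3 blood libraries for the same groups. Aged mice were 17 to 20 months old, with 2 sham libraries at day 2 (1 male, 1 female), 3 stroke libraries at day 2 (1 male, 2 female) and 1 stroke library at day 14 (female), all from brain. A brain library pooled the hemispheres of 4 to 5 mice and a blood library the blood of 2 mice. Brain tissue of every group, sham included, was dissociated with papain in the presence of Brilliant Blue G, actinomycin D and AP-5, and blood with Brilliant Blue G and actinomycin D. There was no sham group at day 14, so both stroke times were set against the same sham libraries of day 2, and time after surgery and stroke cannot be told apart in the day 14 comparison.

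PD-L1 and PD-L2 engage the receptor PD-1 on T cells and dampen their activation. B7-1 and B7-2 bind CD28, which costimulates T cells, and CTLA-4, which restrains them, while CD40 receives CD40 ligand from helper T cells and licenses dendritic cells, macrophages and B cells. TIM-3 is best known as an inhibitory receptor of exhausted T cells but is also carried by myeloid cells, and microglia are a known site of its expression in brain. CD30 ligand binds CD30, which activated lymphocytes carry.

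The genes lay on 5 chromosomes (GRCm38, GENCODE M21, all protein coding). Cd274 (chr19:29367455-29388095) and Pdcd1lg2 (chr19:29410919-29471161) are neighbours on the plus strand, 22823 bp apart. Cd80 (chr16:38455561-38496335, plus strand) and Cd86 (chr16:36603869-36666081, minus strand) share a chromosome. Cd40 lies at chr2:165055627-165072948 (plus strand), Havcr2 at chr11:46454935-46481255 (plus strand) and Tnfsf8 at chr4:63831308-63861347 (minus strand). The 250 bases before the start of a RefSeq transcript (GRCm38.p6) could be read for 5 of the 7 genes; Cd86 and Cd40 had no entry. They are shown for Cd80 and Havcr2, which were both lower in microglia at day 2 after stroke, and for Cd274, which was higher there at day 14; capitals mark a match to the AP-1 motif TGANTCA, and all 3 are plus-strand sequence, 5′ to 3′.
Cd80: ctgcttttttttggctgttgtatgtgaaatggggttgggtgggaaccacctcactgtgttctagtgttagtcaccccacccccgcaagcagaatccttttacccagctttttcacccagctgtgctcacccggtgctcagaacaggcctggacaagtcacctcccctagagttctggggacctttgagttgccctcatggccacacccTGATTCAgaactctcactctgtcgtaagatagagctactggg
Havcr2: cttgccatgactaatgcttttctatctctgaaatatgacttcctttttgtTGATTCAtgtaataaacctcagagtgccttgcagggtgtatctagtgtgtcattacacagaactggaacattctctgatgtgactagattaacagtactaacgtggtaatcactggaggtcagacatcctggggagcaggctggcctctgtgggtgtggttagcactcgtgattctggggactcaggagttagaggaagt
Cd274: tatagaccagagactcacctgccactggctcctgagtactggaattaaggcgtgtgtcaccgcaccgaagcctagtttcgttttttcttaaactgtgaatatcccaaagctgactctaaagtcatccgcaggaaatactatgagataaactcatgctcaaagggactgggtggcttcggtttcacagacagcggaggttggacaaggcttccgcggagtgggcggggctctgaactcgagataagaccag
The Cd80 stretch is chr16:38458683-38458932, the Havcr2 stretch chr11:46454681-46454930 and the Cd274 stretch chr19:29367188-29367437. The Cd80 stretch lies inside the annotated gene, which begins at base 38455561, and precedes a transcript start within it. Those of Havcr2 and Cd274 lie before their annotated genes. The AP-1 match stood 42 to 36 bases before the start in Cd80 and 200 to 194 bases before it in Havcr2, and 6.75% of 32851 such windows of all genes held the motif on either strand. Matches to TTCNNNGAA (the interferon-gamma activated site, 7.02% of windows), to GAAA, any 2 bases and GAAA (the interferon-stimulated response element, 2.98%) and to GGG, any 2 bases and TTTCC (NF-kB, 1.41%) were not found in the 3 stretches, which says only that these letters are not in these windows.

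The tables held 106977 cells, and a library held 819438 to 5855047 counts in total, while its median cell held 321 to 1363. Levels are CPM, counts scaled to a total of 1000000, of the counts summed over the cells of 1 parent type in 1 library, where at least 20 such cells were present, and p-values measure only the spread between these libraries. In such sums fewer expressing cells and less RNA per cell cannot be told apart. In 1 library, replicate 3 of the young day 2 stroke brains, 58 cells were annotated as microglia, and 8 microglial markers summed to 817 CPM there against 15531 to 16456 CPM in the other 3 libraries of the group. P2ry12, a defining microglial gene, was at 3.25 CPM in those cells, so the microglial calls of the 7 genes are also given without that library. Marker means, list genes and subtype shares of microglia include it. The parent type of dendritic cells had the monocyte marker list as its highest (609 CPM per gene) and the dendritic cell list as its second (184 CPM per gene) in brain, and the same order held in blood. Other parent types named below had their own list highest. Young brain libraries also fell into 5 with an earlier and 7 with a later date in a deposited identifier, called the date split (1 sham, 2 day 2 and 2 day 14 libraries against 3, 2 and 2). What that date records is not stated in the sources used here.

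Across brain cells the 7 genes were spread over different types, and no type was the highest for all of them. Because the types came from clustering of these transcripts, differences between types are given as levels without a test. At day 14 in young brain, Havcr2 was highest in microglia (228 ± 48.8 CPM, SD, n = 4), followed by dendritic cells (108 ± 19.5), monocyte-derived cells (99.4 ± 19.1), border-associated macrophages (61.2 ± 29.2) and granulocytes (44.1 ± 64.2). Dendritic and monocyte-derived cells did not differ beyond their spread. Endothelial cells had 5.71 CPM, T cells 3.11 CPM, and NK and B cells had none. Cd86, whose product binds CD28 and CTLA-4, followed a similar order among these cells: microglia (208 ± 54.9), border-associated macrophages (158 ± 106), dendritic cells (152 ± 32.7) and monocyte-derived cells (124 ± 14.9), with overlapping spreads between neighbours. Its level was under 6 CPM in granulocytes, NK cells and endothelial cells.

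Cd80 and the PD-1 ligands were arranged otherwise. At day 14, Cd80 was highest in granulocytes (101 ± 29.8 CPM, n = 4), then dendritic cells (47.4 ± 6.74), monocyte-derived cells (21.9 ± 8.34), border-associated macrophages (18.4 ± 15.7) and microglia (5.87 ± 1.61). The libraries of granulocytes (75.1 to 142 CPM), dendritic cells (40.8 to 55.2) and monocyte-derived cells (16.6 to 34.2) did not overlap, although the granulocyte level rested on 14.9 counts. Cd274 was highest on average in granulocytes (146 ± 116), then dendritic cells (98 ± 24.9), NK cells (78.2 ± 54, n = 3), monocyte-derived cells (60.4 ± 16.5), T cells (40.3), microglia (30.7 ± 15.2) and endothelial cells (26.3 ± 22.5), and no neighbours in this order were apart by more than their spread. Pdcd1lg2 was the scarcest outside a few types: granulocytes (73 ± 98.4), B cells (52), NK cells (42.6 ± 30.7, n = 3) and dendritic cells (31.1 ± 12.1) had the highest means, while monocyte-derived cells had 3.6 ± 1.33 CPM, microglia 0.793 CPM and endothelial cells none.

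Cd40 at day 14 was highest in dendritic cells (107 ± 41.3 CPM), then B cells (55.8 ± 48.8, n = 3), monocyte-derived cells (51 ± 7.72), endothelial cells (34.9 ± 16.7) and border-associated macrophages (29.9), with overlapping spreads between neighbours. The libraries of dendritic cells (84.3 to 169 CPM) lay above those of monocyte-derived cells (41.3 to 58.3). Microglia held 2.04 CPM of it. Tnfsf8 was highest in T cells (44.3 ± 27.1), then monocyte-derived cells (33.7 ± 7.81), NK cells (21.1 ± 7.5, n = 3), dendritic cells (19.6 ± 12.5) and microglia (13.8 ± 3.46), and was not detected in B cells, where the counts allow up to 41.1 CPM.

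**Figure D1:**
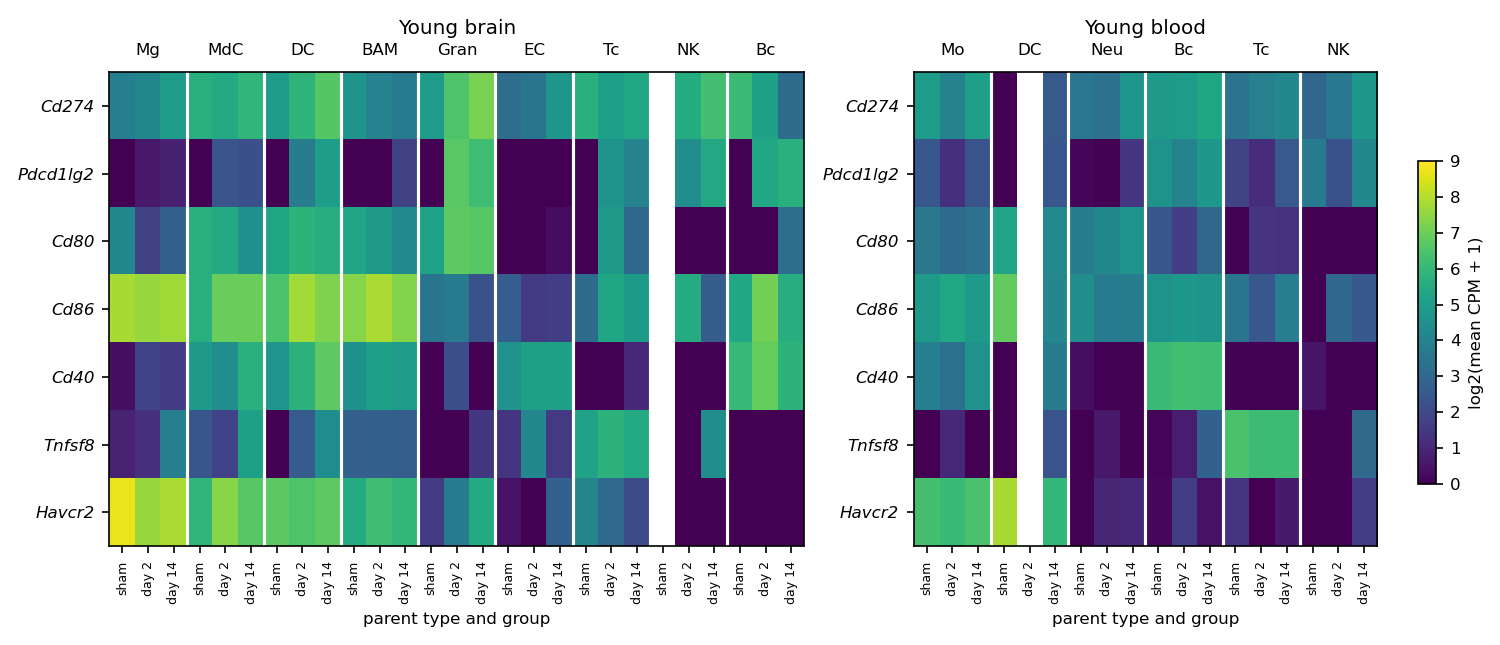
Heat maps of the mean level of each of the 7 genes, as log2(CPM + 1), in each parent type (rows by gene, columns by type and group) for young brain and young blood; white marks a group with fewer than 2 libraries. Brighter cells are higher levels. Havcr2 is brightest in microglia, Cd86 in microglia, border-associated macrophages and dendritic cells, and Cd40 in dendritic and B cells. Tnfsf8 brightens in microglia and monocyte-derived cells at day 14.

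In microglia, the resident macrophages of the brain, the B7 ligand Cd80 and the receptor Havcr2 fell 2 days after stroke. The Cd80 level was 16, 17.5, 13 and 23.1 CPM in the 4 sham libraries, 3.62, 2.44, 1.12 and 2.49 CPM in the stroke libraries of day 2, and 5.34, 8.27, 5.11 and 4.78 CPM at day 14. The 3 groups did not overlap. The 1.12 CPM belongs to day 2 replicate 3, the library that lacked microglial markers, whose microglial sum held 26321 counts. It amounts to less than a single count, so that library cannot show a low level of Cd80. edgeR's quasi-likelihood test with Benjamini-Hochberg adjustment over all genes gave a log2 fold change of -2.43 ± 0.42 (SE, n = 4 per group, adjusted p = 0.0012) at day 2, and -2.42 (adjusted p = 0.0024) without the library that lacked microglial markers. At day 14 the difference from sham was -1.09 ± 0.34 (adjusted p = 0.0464), a call that was lost without any 1 of the 4 sham or the 4 day 14 libraries (adjusted p = 0.0563 to 0.184) and without day 2 replicate 1, 3 or 4 (0.0764, 0.0566 and 0.0549). Day 14 against day 2 gave 1.34 ± 0.44 (adjusted p = 0.0825).

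Havcr2 in the same microglia was 334, 479, 406 and 488 CPM in sham, 176, 185, 200 and 216 CPM at day 2, and 184, 188, 268 and 273 CPM at day 14. Every stroke library lay below every sham library, while the day 2 and day 14 libraries overlapped. The fall at day 2 was -1.0 ± 0.24 on the log2 scale (edgeR, adjusted p = 0.00738), and -0.96 (0.0156) without the library that lacked microglial markers. At day 14 edgeR gave -0.45 ± 0.23 (adjusted p = 0.183). That value moved with the scaling: without TMM factors it was -0.90 (0.00648), when the median of all genes was itself -0.49 instead of -0.04, and DESeq2 gave -0.60 (0.0348). Within the libraries of the earlier date Havcr2 was 334 CPM in sham, 176 to 185 at day 2 and 184 to 188 at day 14. Within those of the later date it was 406 to 488, 200 to 216 and 268 to 273 CPM.

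The PD-1 ligand Cd274 and the CD30 ligand Tnfsf8 rose in microglia by day 14. Tnfsf8 was 0 to 2.18 CPM in the sham libraries, 0 to 4.59 CPM at day 2, and 11.4, 11.1, 14.3 and 18.6 CPM at day 14, so that every day 14 library lay above all others. Day 2 replicate 3 held too few microglial counts to show levels of this size. The log2 fold change was 4.09 ± 0.78 against sham (edgeR, adjusted p = 0.00352; 4.10 and 0.0102 without the library that lacked microglial markers) and 3.76 ± 0.91 against day 2 (adjusted p = 0.0242). The second value ran from 2.73 without day 2 replicate 4 to 5.45 without day 2 replicate 2, the library with 4.59 CPM, and its call was lost without day 2 replicate 1 (0.14), 3 (3.66, adjusted p = 0.0566) or 4 (0.128), or day 14 replicate 1 (0.0574), 3 (0.0573) or 4 (0.0782). T cells also carried Tnfsf8. The T cell marker list came to 1.49, 8.56 and 11.1 CPM in sham, day 2 and day 14 microglia. It came to 5966 CPM in day 14 T cells themselves, whose Tnfsf8 was 44.3 CPM.

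Cd274 was 7.2, 10.9, 18.2 and 19.4 CPM in sham microglia, 15.3, 20.8, 18.2 and 11.6 CPM at day 2, and 42, 15.2, 20.4 and 45.3 CPM at day 14. The groups overlapped, and 2 of the 4 day 14 libraries lay above all others. The 18.2 CPM of day 2 replicate 3 amounts to less than a single count. The day 14 change was 1.61 ± 0.41 against sham (edgeR, adjusted p = 0.0191; 1.60 and 0.0228 without the library that lacked microglial markers), and it was no longer called without sham replicate 2 (0.0716) or day 14 replicate 1 (0.0634). Against day 2 it was 1.30 ± 0.45 (adjusted p = 0.0973). Cd86 was 228 ± 14.1 CPM in sham, 193 ± 26.1 at day 2 (log2 fold change -0.04, adjusted p = 0.931) and 208 ± 54.9 at day 14 (0.33, adjusted p = 0.307). The day 14 value, after TMM scaling, has the opposite sign to the difference of the CPM means, so no direction is given. Cd40 and Pdcd1lg2 were too scarce in microglia for the filtered test. Thus 2 of the 5 genes tested in microglia were called at day 2, where 31.4% of all genes tested were called. At day 14, 3 of 5 were called against sham (15.2% of all genes) and 1 of 5 against day 2 (6.93%).

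Markers of other cells also moved in the microglial sums. The monocyte list came to 7.95, 381 and 102 CPM in sham, day 2 and day 14 microglia, and the 8 microglial markers to 22630, 12090 and 16450 CPM. Both day 2 means include the 58-cell library, where the microglial markers were at 817 CPM against 15531 to 16456 CPM in the other day 2 libraries. The part of these lists in the changes of Cd80, Havcr2, Cd274 and Tnfsf8 was not tested. Monocyte-derived cells of the day 2 brains held more Cd80 (43.9 ± 9.98 CPM) than microglia of any group.

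In monocyte-derived cells, which enter the injured brain from blood, Havcr2 and Cd86 rose at day 2 and Tnfsf8 rose between day 2 and day 14. Havcr2 was 64.2, 89.2, 0 and 78 CPM in sham, 187, 140, 183 and 166 CPM at day 2 and 102, 84.2, 86 and 126 CPM at day 14. The day 2 libraries lay above all the others. The change at day 2 was 2.05 ± 0.43 (edgeR, adjusted p = 0.0104), while day 14 gave 1.24 ± 0.44 against sham (0.132) and -0.80 ± 0.31 against day 2 (0.274; DESeq2 -0.74, 0.00933). Sham libraries held 43 to 99 cells of this type, so a sham level here rests on few counts.

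Cd86 was 66.1, 75.8, 24.7 and 35.4 CPM in sham monocyte-derived cells, 134, 90.6, 127 and 135 CPM at day 2, and 118, 107, 131 and 141 CPM at day 14. No stroke library overlapped the sham libraries, and the stroke times overlapped each other. edgeR gave 1.58 ± 0.35 at day 2 (adjusted p = 0.0147) and 1.56 ± 0.35 at day 14 (adjusted p = 0.0173). The first was lost without sham replicate 3 (0.0567), without TMM and with counts rounded up cell by cell (0.95, adjusted p = 0.0822). The second was lost without sham replicate 1, 2, 3 or 4 (0.0588, 0.0508, 0.0833 and 0.0553) or day 14 replicate 4 (0.0505), with at least 50 cells per library (0.0553, the fit that drops sham replicate 4) and with counts rounded up cell by cell (0.0922).

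Tnfsf8 in monocyte-derived cells was 0, 17.3, 0 and 0 CPM in sham, 5.56, 0.627, 3.08 and 0.701 CPM at day 2, and 44.5, 27.2, 34.4 and 28.9 CPM at day 14. All day 14 libraries stood above all others, and 1 sham library above every day 2 library. The change from day 2 to day 14 was 3.64 ± 0.55 (edgeR, adjusted p = 0.00365), and against sham it was 3.30 ± 1.08 (adjusted p = 0.0964). Without sham replicate 2, the library at 17.3 CPM, the latter was 8.35 (0.0994), a value that then rests on sham libraries at 0 and is no measure of size. In the libraries of the earlier date the level was 0 CPM in sham, 0.627 to 5.56 at day 2 and 27.2 to 44.5 at day 14. In those of the later date it was 0 to 17.3, 0.701 to 3.08 and 28.9 to 34.4 CPM. The T cell marker list was at 0, 2.93 and 6.39 CPM in these cells, and NK cells of day 14 held 21.1 ± 7.5 CPM of Tnfsf8.

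The remaining genes tested in monocyte-derived cells were not called in the main fit of any comparison. Cd40 was 17.8, 66.8, 24.4 and 0 CPM in sham, 20.3, 7.99, 29.6 and 23.5 CPM at day 2 and 41.3, 58.3, 55.9 and 48.5 CPM at day 14. Every day 14 library exceeded every day 2 library, with a log2 difference of 1.25 ± 0.42 (edgeR, adjusted p = 0.191). DESeq2 gave an adjusted p of 0.043, and edgeR with the date split as a term gave 1.33 (adjusted p = 0.0329). Cd80 was 57.6, 35.1, 38.2 and 44.7 CPM at day 2 and 19.5, 17.1, 16.6 and 34.2 CPM at day 14, ranges that did not overlap (-1.07 ± 0.49, adjusted p = 0.408), and its sham libraries ran from 0 to 123 CPM. Cd274 was 50.5 ± 31, 44.2 ± 7.6 and 60.4 ± 16.5 CPM in the 3 groups. In all, 2 of 6 genes were called in monocyte-derived cells at day 2, where 6.71% of all genes were, 1 of 6 at day 14 against sham (5.15%), and 1 of 6 at day 14 against day 2 (1.79%). Summed microglial markers in these cells went from 203 to 546 to 1359 CPM and those of border-associated macrophages from 249 to 903 to 1112 CPM over the 3 groups. Their part in these changes was not tested.

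**Figure D2:**
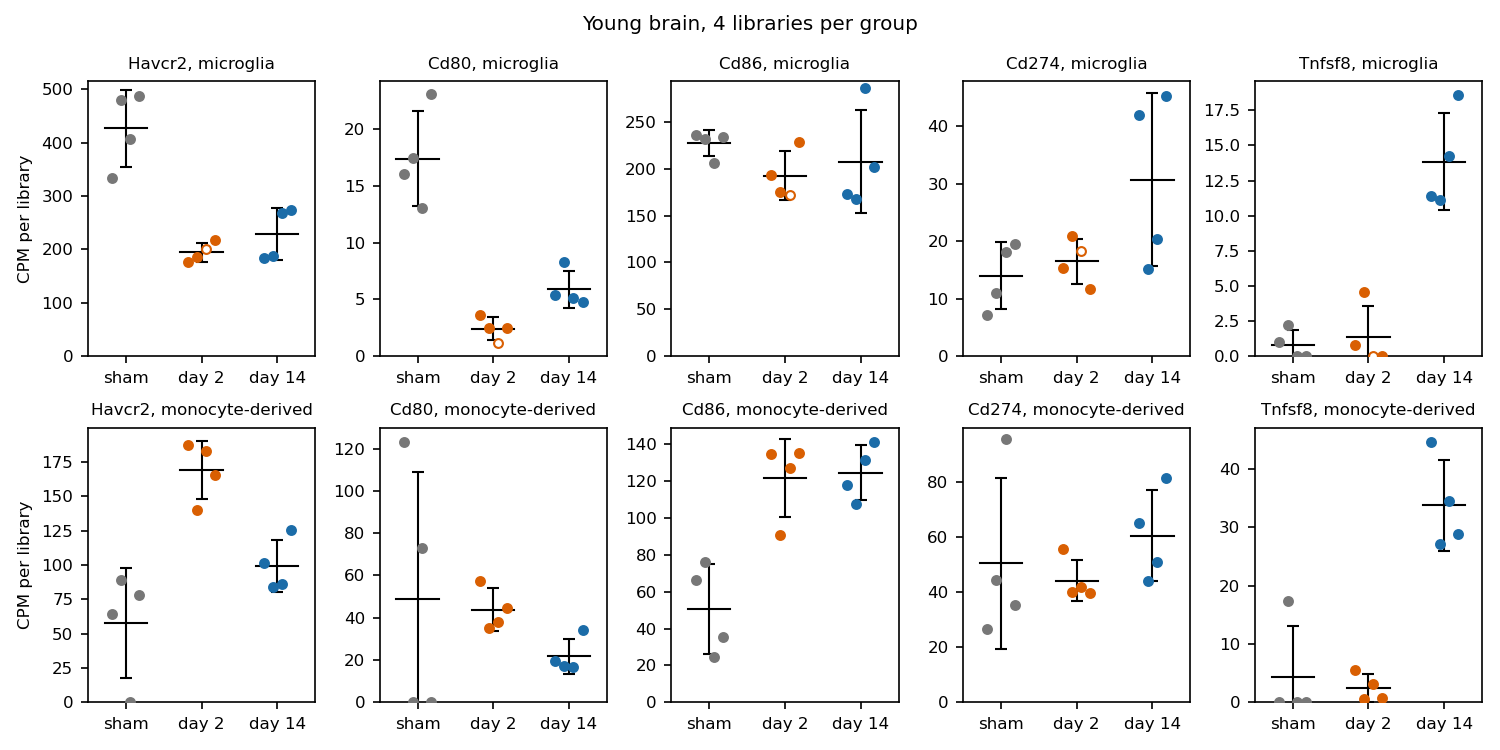
Level in CPM of Havcr2, Cd80, Cd86, Cd274 and Tnfsf8 in each library of young brain (points; line, mean; bars, SD), for microglia in the top row and monocyte-derived cells in the bottom row, with the 58-cell library as an open point. Havcr2 is lower after stroke than in sham in microglia and highest at day 2 in monocyte-derived cells, and Tnfsf8 is highest at day 14 in both.

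The time course of Havcr2 and Cd80 after stroke differed between microglia and monocyte-derived cells. The change from day 2 to day 14 was larger in microglia by 1.36 ± 0.20 on the log2 scale for Havcr2 (edgeR with library as a block, adjusted p = 0.000137) and by 2.61 ± 0.50 for Cd80 (adjusted p = 0.00142). Without the library that lacked microglial markers the differences were 1.29 (0.000512) and 2.55 (0.00326). Cd274 gave 1.01 ± 0.30 (adjusted p = 0.0339), a call lost without day 2 replicate 1 (0.112), 3 (0.94, adjusted p = 0.0645) or 4 (0.197) or day 14 replicate 1 (0.154) or 4 (0.0684), with DESeq2 (0.0575) and without TMM (0.64, adjusted p = 0.157). Tnfsf8 rose in both types, with a difference of -0.38 (adjusted p = 0.916). These were 3 of 7 genes tested, against 8.48% of all genes. Between dendritic and monocyte-derived cells 1 of 7 was called (0.443% of all genes): Havcr2, by 1.04 ± 0.24 (adjusted p = 0.0463), lost without any 1 of day 2 replicates 1 to 4 (0.16, 0.05001, 0.112 and 0.101) or day 14 replicates 2, 3 and 4 (0.136, 0.114 and 0.0868).

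Dendritic cells, the type known for priming T cells, had the highest levels of Cd40 at day 14 but none of the 5 members tested passed against sham or between times. The share of all genes called was 1.01% at day 2, 1.53% at day 14 and 0.893% between them, and sham libraries held 61 to 86 of these cells. Cd86 was 98.6, 38.8, 72.8 and 139 CPM in sham, 197, 189, 299 and 177 CPM at day 2 and 165, 103, 166 and 172 CPM at day 14. The day 2 libraries lay above all of the others (1.42 ± 0.37 against sham, edgeR, adjusted p = 0.0792; 1.84, adjusted p = 0.0182, without the filter on low counts). Cd40 was 56.4, 15.7, 0 and 27.4 CPM in sham, 65.5, 21.2, 88 and 42.5 CPM at day 2, and 85.8, 84.3, 169 and 88.5 CPM at day 14. The day 14 libraries exceeded all sham libraries, and the difference was 1.86 ± 0.58 (adjusted p = 0.148).

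The PD-1 ligands had the same order of groups in dendritic cells. Cd274 was 14.1, 46.7, 59.5 and 0 CPM in sham, 51.9, 69.6, 46.9 and 58.4 CPM at day 2, and 123, 73.6, 79.8 and 116 CPM at day 14. Day 14 lay above both other groups (1.68 ± 0.53 against sham, adjusted p = 0.162), and sham and day 2 overlapped. Pdcd1lg2 was not detected in any sham library, and was 18.3, 20.2, 14.3 and 0 CPM at day 2 and 21.3, 25.5, 48.6 and 28.8 CPM at day 14. Against the level that 3 counts would give over the sham group (15.1 CPM), the pooled day 14 level of 32.8 CPM was at least 2.18-fold higher, and edgeR without the filter gave an adjusted p of 0.0851. Tnfsf8 was also at 0 in every sham library. At day 14 it was 25.6 and 34 CPM in the libraries of the earlier date and 6.4 and 12.5 CPM in those of the later date. The pooled level of 20.6 CPM was at least 1.37-fold higher by the same measure, although the later libraries lay below 15.1 CPM. For it edgeR without the filter gave an adjusted p of 0.28. Havcr2 was 106 ± 27.1, 90.8 ± 4.13 and 108 ± 19.5 CPM.

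**Figure D3:**
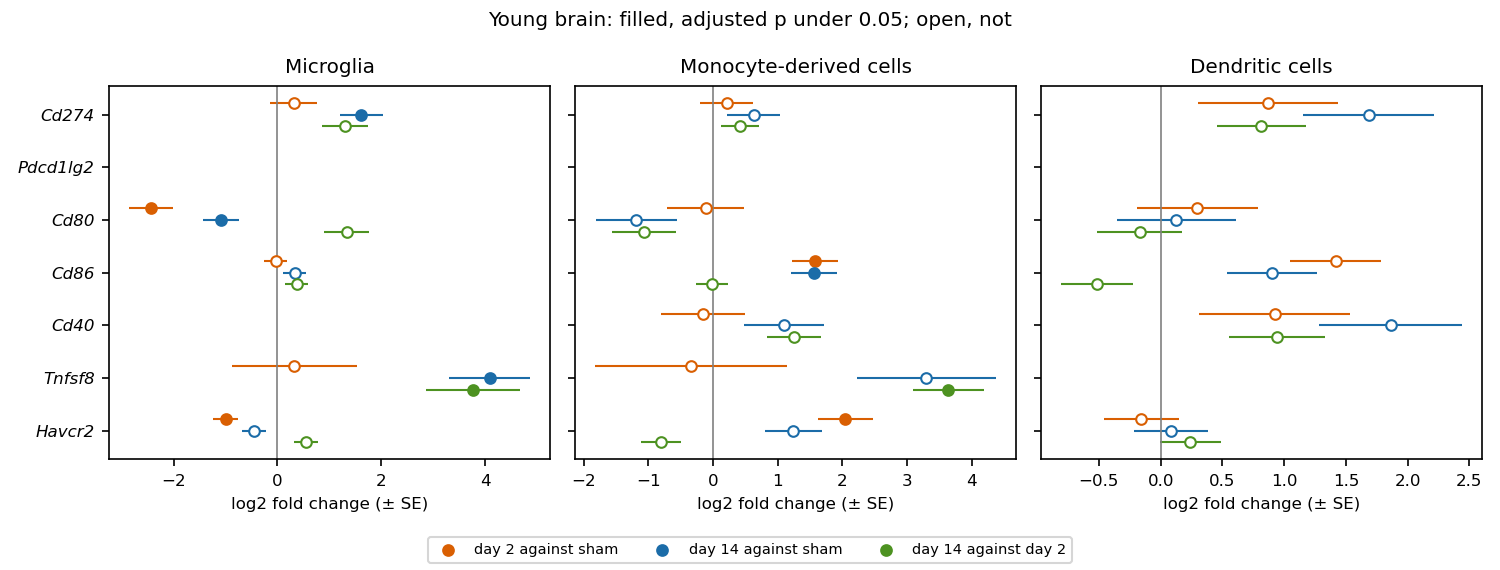
Log2 fold change (points) with its SE (bars) of each tested gene in microglia, monocyte-derived cells and dendritic cells for day 2 against sham, day 14 against sham and day 14 against day 2 in young brain; filled points have an adjusted p under 0.05 in edgeR's quasi-likelihood test. Filled points are Cd80 and Havcr2 below 0 and Tnfsf8 and Cd274 above 0 in microglia (Cd80 and Havcr2 at day 2, Cd80 also at day 14), and Havcr2, Cd86 and Tnfsf8 above 0 in monocyte-derived cells.

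Within the dendritic cells, Cd274, Cd40 and Pdcd1lg2 had their highest means at both stroke times in 1 authors' subtype, DC5, whose cells carried the migration genes Ccr7 (2993 CPM at day 14) and Fscn1 (847 CPM at day 2, 1767 CPM at day 14). Subtypes came from clustering, so the values are a description over libraries with at least 20 such cells. In DC5, Cd274 was 465 and 298 CPM in the day 2 libraries 2 and 3, and 363, 436, 263 and 528 CPM at day 14. Cd40 was 44.6 and 349 CPM at day 2 and 183, 363, 543 and 257 CPM at day 14, and Pdcd1lg2 was 82.2 and 38.6 CPM and then 54.4, 124, 164 and 76.9 CPM. DC5 levels of Cd274 thus overlapped between the times, while in the whole dendritic type day 14 stood above day 2. The share of DC5 among dendritic cells was 5.42% in sham (15 cells), 7.32% at day 2 (96 cells) and 13.8% at day 14 (228 cells).

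Other dendritic subtypes held less of the PD-1 ligands. DC6 came next at day 14, with 108 ± 18.6 CPM of Cd274, 214 ± 50.4 CPM of Cd40 and 43.1 ± 16.5 CPM of Pdcd1lg2 (n = 4 each), and sham libraries held no DC6 cells. Its Cd40 libraries (168 to 286 CPM) overlapped those of DC5. DC1 had 57.4 ± 29.6 CPM of Cd274 and DC2, in which the cross-presenting markers Xcr1 (527 CPM) and Clec9a (455 CPM) were high, had 29.1 ± 27.2 CPM (n = 3). Tnfsf8 was distributed differently: it was at 0 in DC5, and at 32.8 CPM in DC1 (12 to 42.4) and 33.4 CPM in DC6 at day 14.

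**Figure D4:**
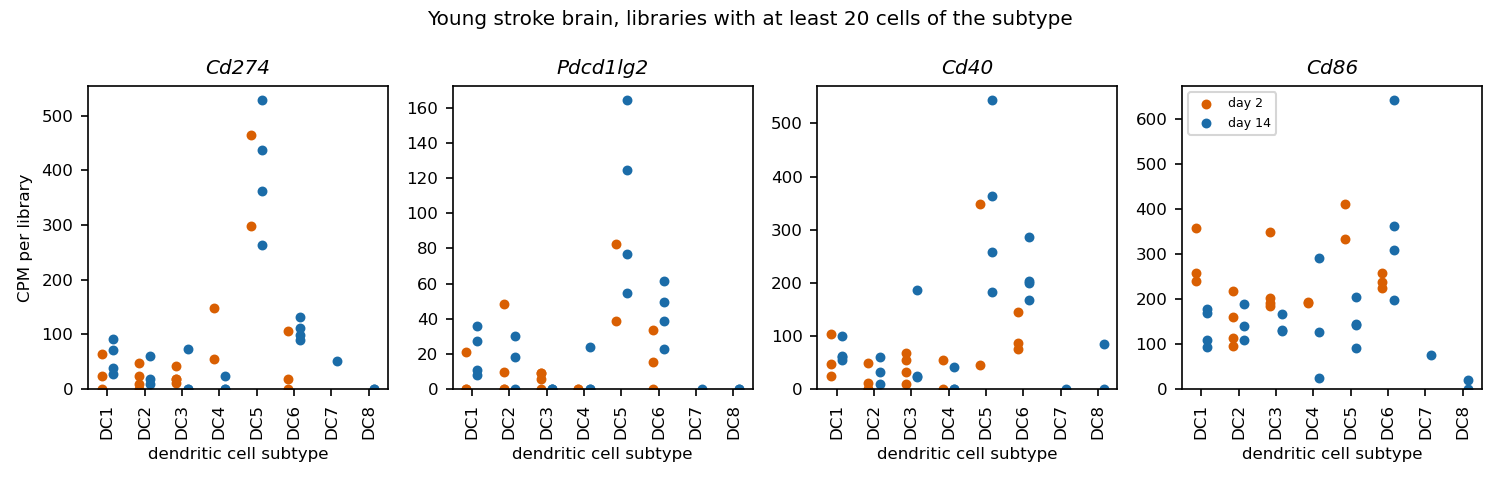
Level in CPM of Cd274, Pdcd1lg2, Cd40 and Cd86 in each young stroke library for dendritic subtypes DC1 to DC8, with day 2 and day 14 in separate colours; only libraries with at least 20 cells of the subtype have a point. The DC5 points of Cd274 sit between 263 and 528 CPM, above those of the other subtypes, which reach 148 CPM in DC4 at day 2.

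Subtypes of monocyte-derived cells differed in the same genes. Tnfsf8 was at 0 in MdC6 in all 3 day 2 libraries with enough cells, and at 71.7, 39.1, 55.2 and 46.9 CPM at day 14. MdC4 had 28.5, 0, 11 and 4.47 CPM at day 2 and 24.9, 37.8, 19.7 and 32.8 CPM at day 14, ranges that overlapped. MdC6 made up 0.581% of monocyte-derived cells in sham, 2.84% at day 2 and 34% at day 14, and MdC4 1.46%, 12.5% and 24.8%. Cd40 was highest in MdC4, at 38, 16.9, 66.1 and 94.5 CPM on day 2 and 107, 115, 108 and 124 CPM on day 14. Havcr2 at day 2 ran from 101 ± 9.33 CPM in MdC3 to 228 ± 12.2 CPM in MdC2, and at day 14 it was between 89.2 and 114 CPM in all 6 subtypes. MdC2 itself went from 28.8% of the type at day 2 to 3.73% at day 14.

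Microglial subtypes changed in share as well as in level. Mg1 and Mg2 made up 53% and 37.8% of sham microglia, 11% and 5.18% at day 2, and 6.18% and 4.9% at day 14, when Mg3 made up 69.6%. Mg3 made up 3.63% at day 2. Shares and levels of subtypes other than Mg1, Mg2, Mg3 and Mg5 were not read, and these left much of the day 2 microglia undescribed. Havcr2 was 431 ± 87.2 CPM in Mg1 of sham (n = 4), 343 ± 140 at day 2 (n = 3) and 355 ± 181 at day 14 (n = 3), groups within each other's spread. In Mg3 it was 183, 200, 249 and 242 CPM at day 14, and 596 and 504 CPM in the 2 sham libraries with enough Mg3 cells (40 and 30 cells). Mg5, 26.4% of day 2 microglia, held 192, 185 and 185 CPM of Havcr2 at that time. Cd80 was 15.3 ± 3.34 CPM in Mg1 of sham and near 6 CPM after stroke (6.46 CPM at day 2, 6.24 CPM at day 14). Mg1 numbered 5826 cells in sham, 335 at day 2 and 321 at day 14, so the stroke values rest on few counts. Tnfsf8 at day 14 was 11.1 to 23.4 CPM in Mg3 and 27.9 to 50 CPM in Mg5.

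Outside these 3 myeloid types, the counts behind the members were small. In endothelial cells, which line the vessels, Tnfsf8 was 2.49, 3.66, 0 and 0 CPM in sham, 7.04, 23, 11.8 and 25.5 CPM at day 2 and 0 to 7.58 CPM at day 14. The day 2 libraries exceeded all sham libraries, and edgeR without the filter on low counts gave 2.91 ± 1.08 (adjusted p = 0.131). Their T cell list summed to 1.21, 3.26 and 7.51 CPM over the 3 groups, with Cd3e at 0. The microglial list summed to 2137, 5724 and 2517 CPM there, of which Sparc, which vessel cells also express, made up 2131, 5715 and 2501 CPM, and P2ry12 was near 0. The part of either list in the Tnfsf8 levels was not tested. Cd40 was the only member tested in endothelial cells with the filter, at 23.4 ± 12.2, 33.6 ± 17.7 and 34.9 ± 16.7 CPM (log2 fold change 0.41 at day 2, adjusted p = 0.575), where 13.3%, 0% and 11.2% of all genes were called. Granulocytes held 49.9, 0, 0 and 96.1 CPM of Cd80 in sham, 154, 134, 69 and 72.2 CPM at day 2 and 142, 104, 84.2 and 75.1 CPM at day 14 (1.32 ± 0.77 at day 2, adjusted p = 0.651 without the filter). Their Pdcd1lg2 was 0 in sham, 102 ± 109 CPM at day 2 and 73 ± 98.4 CPM at day 14. Cd80 reached 176 ± 89.8 CPM in subtype Gran2 at day 2 and 142 ± 82.1 CPM at day 14 (n = 4 and 3). T cells carried Tnfsf8 at 35.6 ± 52.7, 55.6 ± 20.5 and 44.3 ± 27.1 CPM, with overlap between all groups. No member passed the filter in granulocytes, where 8.35%, 26.1% and 4.23% of all genes were called in these comparisons and 3.14% in aged mice, or in T cells, where 0%, 0.0954% and 0% were. In border-associated macrophages Cd86 was 163 ± 95.3, 233 ± 74.1 and 158 ± 106 CPM (0.19 at day 2, 0.03 at day 14). It was the only member tested there and was not called, where 2.67%, 0.0762% and 0.838% of all genes were called at day 2 against sham, day 14 against sham and day 14 against day 2.

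The receptors that these ligands engage were read mainly in T cells. In young brain T cells Cd28 averaged 223, 333 and 370 CPM in sham, day 2 and day 14, Ctla4 108, 207 and 425 CPM, Pdcd1 71.5, 144 and 103 CPM, and Cd40lg 0, 113 and 75 CPM. Tnfrsf8, which encodes CD30, the receptor of the Tnfsf8 product, was at 0, 6.49 and 1.12 CPM. These are means over few cells: sham libraries held 43 to 70 T cells, and day 2 had 3 libraries with enough. Of 4 receptors and partners tested in T cells, 0 were called in any of the comparisons, where 0%, 0.0954% and 0% of all genes were. In microglia the PD-1 gene Pdcd1 itself rose, by 4.25 on the log2 scale at day 2 and 5.44 at day 14 (edgeR, adjusted p = 0.000194 at day 14).

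Genes of the same pathways were taken as lists, chosen with results of these data known. They were receptors and partners (10 genes), other ligands (17), other T cell costimulatory and coinhibitory receptors (14), CD40 and NF-kB signalling (12) and the interferon-gamma axis (11). In microglia at day 2, 2 of 6 tested receptors and partners rose (Pdcd1 and, by 0.85, the TIM-3 ligand Lgals9) and 1 fell (Ceacam1, -1.43). Of 9 other ligands, 1 rose (Tnfsf9, 2.94, the 4-1BB ligand) and 2 fell (the ICOS ligand Icosl, -1.19, and the checkpoint molecule Vsir, -1.60). The list medians were -0.04 and 0.13 beside -0.05 over all genes, and 31.4% of all genes tested were called in this comparison. Of 11 CD40 and NF-kB genes, 2 fell, the subunits Nfkb1 (-1.12) and Rel (-1.44), with a list median of -0.98. Of 10 interferon-gamma genes, 3 fell: Ifngr1 (-1.36), a receptor chain, Jak1 (-1.24), its kinase, and Cmtm6 (-1.05), which stabilises PD-L1 at the cell surface. Their median was -0.74.

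At day 14, 3 of 9 other ligands were higher in microglia than in sham (Tnfsf9, 2.71, Cd48, 1.31, and Pvr, 1.25) and 1 was lower (Icosl, -0.90), with a median of 0.27 beside -0.04 over all genes, of which 15.2% were called. The NF-kB subunit Relb rose by 1.13, 1 of 11 genes. Among 10 interferon-gamma genes 1 fell, Ifngr1 (-0.89). Both of the 2 tested genes of the T cell costimulatory and coinhibitory receptor list rose, Cd244a by 3.86 (5.03 at day 2) and Lag3 by 2.11. Between the stroke times Irf1, an interferon-gamma gene that induces PD-L1 in many cells, rose by 1.34, and the NF-kB inhibitor Tnfaip3 rose by 3.33, where 6.93% of all genes were called.

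In monocyte-derived cells Lgals9 rose at day 2 (2.87) and day 14 (2.91) and Ceacam1 fell (-1.82 and -2.36), among 3 tested receptors and partners, where 6.71% and 5.15% of all genes were called. Of 8 other ligands 1 rose at day 2, Cd200r1 (2.69), a receptor of CD200, and none was called at day 14. Cd244a was the only gene tested of the T cell costimulatory and coinhibitory receptor list. It was lower at day 14 than in sham (-2.44) and than at day 2 (-1.51, with 1.79% of all genes called). Of 10 interferon-gamma genes none was called at day 2, and Ciita, the switch for MHC class II genes, rose at day 14, from 0 in every sham library, so that no size is given, and by 2.38 between the times. The list median at day 14 was 0.48 beside 0.28 over all genes. None of the 12 CD40 and NF-kB genes was called there. In dendritic cells Relb (2.01) and Lgals9 (1.51) rose at day 14 against sham (1.53% of all genes called), and no gene of the 5 lists was called at day 2 (1.01%). All comparisons with sham shared the same sham libraries.

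In aged mice microglial Cd80 was also lower at day 2 after stroke than in sham. The level was 23.9 and 27 CPM in the 2 aged sham libraries and 5.01, 1.41 and 0 CPM in the 3 aged stroke libraries, with no overlap. edgeR, fitted together with the young day 2 libraries, gave -3.18 ± 0.65 (adjusted p = 0.0171), and -3.99 to -2.885 with 1 library left out. That call was lost without either sham library and without the first female stroke library (0.114). It was also lost with only the aged groups fitted, where no gene was called in microglia. Cd80 was the 1 gene called of 6 tested in aged microglia, where 2.3% of all genes were called. Microglial Havcr2 was 377 and 470 CPM in aged sham and 328, 276 and 342 CPM at day 2, also without overlap, with -0.36 ± 0.31 (adjusted p = 0.632). Microglial Tnfsf8 was 5.08 and 18.1 CPM in aged sham and 8.89 to 11.3 CPM at day 2, and the T cell list in the aged sham microglia ran from 0.0597 to 227 CPM.

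Havcr2 in monocyte-derived cells of aged mice was also higher in every stroke library than in sham, but missed the threshold. It was 0 and 49.4 CPM in sham and 162, 150 and 177 CPM at day 2 (3.08 ± 0.81, edgeR, adjusted p = 0.0519), where 2.56% of all genes were called. Without the female sham library, the only one above 0, the value was 10.4 (0.106) and is no measure of size, and without the male one 2.31 (0.365). It was called in 4 of 20 alternatives: without the filter (0.0115), with rounding up (0.0497), and without young sham replicate 3 (0.0236) or young day 2 replicate 2 (0.0437). In aged endothelial cells Tnfsf8 was at 0 in both sham libraries and at 80.2, 38.4 and 67.4 CPM at day 2, so that the pooled stroke level of 66.6 CPM was at least 7.9-fold higher than the 8.43 CPM that 3 counts would give over the sham group (adjusted p = 0.0535, with 0.606% of all genes called). edgeR called it in 3 of 20 alternatives: without the filter (0.00295) and without young day 2 replicate 1 (0.0433) or 2 (0.0491). The T cell list in these cells summed to 11.9 CPM in sham and 20.5 CPM at day 2, and Cd3e to 0 to 6.68 CPM at day 2. The microglial list summed to 1117 CPM in sham (957 to 1278) and 3802 CPM at day 2 (3503 to 4053), with 1117 and 3750 CPM from Sparc and 0 to 7.68 CPM from P2ry12 at day 2. The part of these lists in the Tnfsf8 levels was not tested.

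The response at day 2 was not shown to differ with age for any of the 12 gene and type combinations tested, and no gene at all was called in the main fit of that comparison (0%). Without the filter on low counts 124 genes were called in endothelial cells, 17 in microglia, 6 in monocyte-derived cells and 1 in granulocytes. DESeq2 called 3 in monocyte-derived cells and 1 in microglia. The difference, aged minus young, was -0.84 ± 0.85 for microglial Cd80 (adjusted p = 0.864), 0.59 ± 0.40 for microglial Havcr2 (0.788) and 4.40 ± 2.31 for endothelial Tnfsf8 (0.847). Young libraries were all male and aged ones of both sexes, and 0 combinations were also called with sex as a covariate. The single aged library of day 14 held 32.7 CPM of Tnfsf8 in microglia and 102 CPM in endothelial cells.

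**Figure D5:**
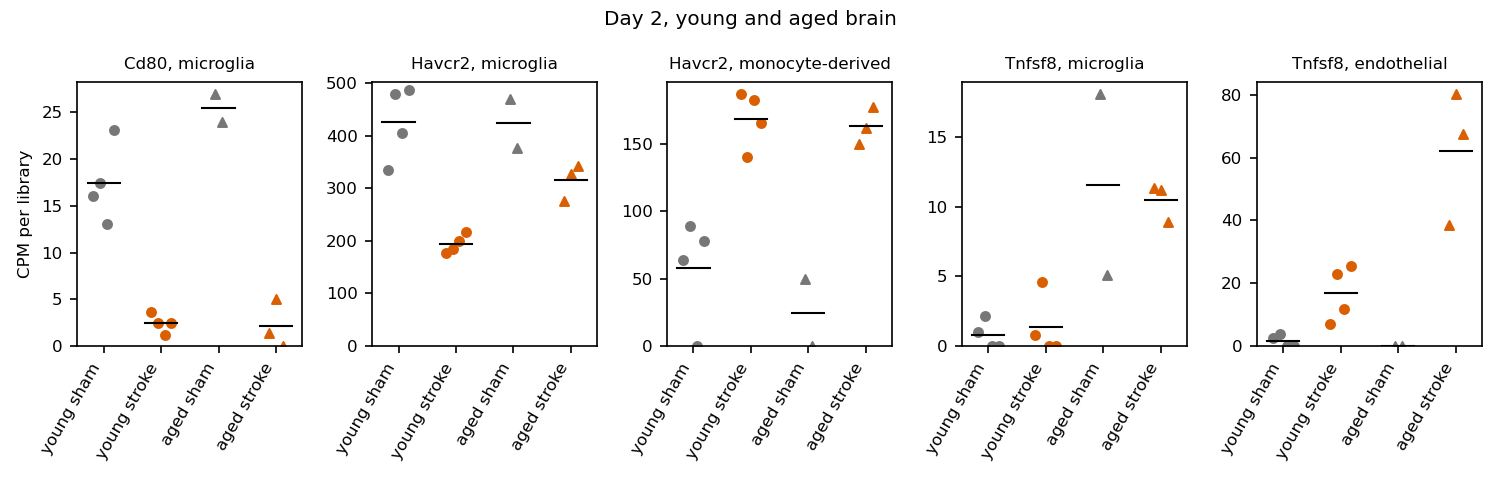
Level in CPM per library (points) and group mean (bars) at day 2 in young and aged sham and stroke brains for Cd80, Havcr2 and Tnfsf8 in microglia, Havcr2 in monocyte-derived cells and Tnfsf8 in endothelial cells. Cd80 in microglia is lower after stroke at both ages, and Tnfsf8 in endothelial cells is 38.4 to 80.2 CPM in the aged stroke libraries against 7.04 to 25.5 CPM in the young ones.

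In blood no change after stroke was called. Tnfsf8 was highest in T cells and Cd40 in B cells in each of the 3 groups, while the type with the highest mean of the other 5 members differed between groups. Tnfsf8 in T cells was 83.8 ± 22.6 CPM in sham (n = 4), 71 ± 22.4 at day 2 (n = 4) and 70.7 ± 13.9 at day 14 (n = 3). Cd40 in B cells was 68.6 ± 11.8, 77.1 ± 31.9 and 74.5 ± 25.1 CPM, and Havcr2 in monocytes 81 ± 47.2, 66.2 ± 24.3 and 84.5 ± 39 CPM. Cd86 in monocytes was 28.2 ± 8.54, 41.4 ± 39.3 and 28 ± 14.8 CPM, below its level in the monocyte-derived cells of brain, though blood and brain tables were made from different preparations. edgeR called 0 of 11 gene and type combinations at day 2 against sham, where 0% of all genes were called in each of the types tested, 0 of 12 at day 14 against sham and 0 of 11 at day 14 against day 2, and DESeq2 also called 0. At an unadjusted p under 0.05 these comparisons held 0, 2 and 1 combinations, Cd274 in neutrophils in both and Havcr2 in dendritic cells at day 14 (-1.92 ± 0.82, edgeR, unadjusted p = 0.0201, adjusted p = 0.364, with 1.48% of all genes called). In monocytes 0.254% and 0.537% of all genes were called in the latter comparisons, in B cells 0.0114% in each, and in T cells 0%.

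The member with the smallest unadjusted p in blood neutrophils was Cd274. It was 10.7 ± 6.99 CPM in sham, 9.41 ± 4.26 at day 2 and 25.2 ± 8.49 at day 14. The day 14 difference was 1.26 ± 0.53 against sham (edgeR, unadjusted p = 0.0289, adjusted p = 0.181) and 1.34 ± 0.51 against day 2 (unadjusted p = 0.0193, adjusted p = 0.166), where 5.99% and 4.69% of all genes in neutrophils were called. These shares were 296 and 232 genes, and 83 and 67 genes were called without day 14 replicate 3. Monocyte subtype Mo3 held more Cd274 than monocytes as a whole, at 97.4 ± 51.3, 65.3 ± 46.3 and 114 ± 98.5 CPM. Pdcd1lg2 in B cells was 23.4 ± 8.32, 15.2 ± 11.8 and 26.8 ± 9.12 CPM.

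Genes with the most similar levels were ranked by Pearson's r over 27 combinations of brain type and group, among 12380 genes, as a description. Combinations of 1 group share their libraries. The closest to Havcr2 were Capza2 (0.927), Hk2 (0.912) and the microglial receptor gene P2ry6 (0.878), and the closest to Cd86 were Ifi30 (0.909), Pkib (0.873) and Rasgef1b (0.86). Cd80 went with Pirb (0.886), Csf2rb (0.878) and Clec7a (0.866). For Cd274 they were Htatip2 (0.815), Crlf2 (0.81) and Ttc7 (0.807), for Tnfsf8 AC164296.1 (0.827), AC154486.1 (0.799) and Gbp6 (0.78), for Cd40 B3gnt8 (0.774), Kynu (0.721) and BC051226 (0.709), and for Pdcd1lg2 Syne3 (0.71), Trim12c (0.696) and Vasp (0.692).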

How the data were processed

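Per the submitters' processing notes, the authors used Seurat and the mm10 genome, with no versions given; the aligner is not given in the sources used here. The authors deposited 1 table of expected counts per library (fractional values per gene and cell, not normalized; 0.304% to 4.78% of the values were whole) and each cell's parent type and subtype. The counts were summed per library and parent type and rounded, for types with at least 20 cells in a library and at least 2 libraries in a group. CPM use all counts of the sum. Differences were fitted over all genes with edgeR 4.0.16 (TMM scaling, filterByExpr, quasi-likelihood test, two-sided, Benjamini-Hochberg adjustment, called at an adjusted p under 0.05) in R 4.3.3, with DESeq2 1.42.0 as an alternative, and were tested on simulated data. An adjusted p over the threshold does not show that levels did not differ. SEs are the log2 fold change divided by the square root of F. Young brain groups were fitted together, aged and young day 2 groups together, and blood separately. No doublet caller was run; an alternative left out the 5% of cells with the most counts. Of all barcodes, 345 occurred in more than 1 library, where chance pairing of random barcodes would give 341 pairs. The percent of mitochondrial counts per cell is the authors' deposited value. The date split (before and from August of the year in the identifier, with mitochondrial shares of 0.235% to 0.559% and 1.67% to 3.38%) was chosen after seeing the data. Other alternatives were library size without TMM, no filter, at least 50 cells, rounding up cell by cell, only the compared groups, sex as a covariate, the replicate number as a block, and leaving out each library. Sequences came from RefSeq tables. The members and lists were chosen with earlier results of these data known. All 7 members were named, with the 3 genes most like each; list genes beyond the largest and smallest called change were named after their values were seen, where a list held 5 or fewer called genes. One called gene of the interferon-gamma list is not reported here.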

Additional observations from a re-analysis of the deposited data

Results flagged for a closer look

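In 12 of 76 groups of 4 libraries 1 library lay far from the other 3 by Dixon's test, which chance alone does in about 1 of 20 groups. In young brain, Cd274 in monocyte-derived cells was 55.5 CPM in day 2 replicate 1 (others 39.6 to 41.9), and Cd80 there was 34.2 CPM in day 14 replicate 4 (16.6 to 19.5). Tnfsf8 in monocyte-derived cells was 17.3 CPM in sham replicate 2 and 0 in the others. Cd80 in microglia was 8.27 CPM in day 14 replicate 2 (4.78 to 5.34), Cd86 206 CPM in sham replicate 3 (232 to 237) and Tnfsf8 4.59 CPM in day 2 replicate 2 (0 to 0.774).

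In dendritic cells, Cd40 was 169 CPM in day 14 replicate 3 (84.3 to 88.5), and Cd86 was 103 CPM in day 14 replicate 2 (165 to 172) and 299 CPM in day 2 replicate 3 (177 to 197). Cd86 in border-associated macrophages was 0 in day 14 replicate 2 (201 to 219). In blood monocytes Cd86 was 40.9 CPM in sham replicate 3 (23 to 24.5) and 99.7 CPM in day 2 replicate 2 (14.2 to 27.2).

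The change from day 2 to day 14 differed between types by a test of the difference itself: microglia exceeded monocyte-derived cells by 1.36 for Havcr2, 2.61 for Cd80 and 1.01 for Cd274 on the log2 scale, and dendritic cells exceeded them by 1.04 for Havcr2.

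The single aged stroke library of day 14 entered no comparison. Listed here are 8 of its values, picked because they lay above both aged sham libraries. Values that did not exceed sham are left out. A single library can lie above both sham libraries by chance, so these values do not show a rise. Cd274 was 89.8 CPM in monocyte-derived cells (sham 0 to 27.4), 20.9 CPM in microglia (13.8 to 15.3) and 43.3 CPM in T cells (0 to 24.5). Cd86 was 344 CPM in granulocytes (0 to 75.3), from 3.99 counts in 21 cells, and Havcr2 85 CPM in monocyte-derived cells (0 to 49.4). Tnfsf8 was 102 CPM in endothelial cells (0 in sham), 32.7 CPM in microglia (5.08 to 18.1) and 106 CPM in T cells (24.1 to 45.6).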

How the results depend on the processing

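None of the 35 single-gene results recomputed under the alternatives changed direction, microglial Cd86 at day 14 not among them. Of 276 alternatives to the 15 called results 222 kept the call, and of 385 alternatives to 20 uncalled results 16 passed the threshold. Of 18 gene and type pairs tested in young brain, 4 were called at day 2 against sham (3 to 4 without each replicate), 4 at day 14 against sham (2 with counts rounded up cell by cell, 1 to 4 without each replicate) and 2 between the times (4 with DESeq2, 1 without the filter, 1 to 3 without each replicate). In aged brain 1 of 12 was called (2 with DESeq2, 3 without the filter, 0 with only the compared groups, 2 with rounding up, 2 without the top 5% of cells, 0 to 3 without each replicate). The type differences gave 3 calls for microglia (2 to 3 without each replicate) and 1 for dendritic cells (0 without the top 5% of cells, 0 to 1 without each replicate). The cause was not tested. Blood and the difference with age gave 0 under every alternative run. Cd86 in monocyte-derived cells at day 2 was not called without TMM (1.14, adjusted p = 0.058) or with rounding up (0.95, 0.0822). Microglial Cd80 at day 14 was not called in 16 of 20 alternatives.

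Over all genes, microglial calls at day 14 against sham were 1544 (791 without sham replicate 4 to 2573 without day 14 replicate 4, 3425 without TMM). Between the times they were 703 (276 to 735 without each replicate, 1157 without TMM). In monocyte-derived cells between the times they were 145 (45 to 191 without each replicate, 386 with DESeq2, 469 with the replicate block). In aged microglia they were 255 (0 with only the compared groups, 357 without young day 2 replicate 3, 466 with DESeq2). In young brain at day 2 they were 778 in endothelial cells (320 to 991 without each replicate) and 35 in border-associated macrophages (2 to 52). The highest type was kept without the top 5% of cells in 59 of 62 gene and group combinations; the others were Cd274 in blood at day 2, Tnfsf8 in aged brain at day 14 and Cd80 in young sham brain.

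The labels do not say whether the replicate numbers pair the samples. Of the pairs with the same number in different groups, 38 of 89 correlated over 0.1 in brain (-0.351 to 0.8) and 23 of 56 in blood (-0.509 to 0.417). These values do not settle it, because in every young brain group replicate 1 was of the earlier date and replicates 3 and 4 of the later date. With the replicate block young brain gave 4, 4 and 3 calls: Tnfsf8 in monocyte-derived cells at day 14 against sham (3.47, adjusted p = 0.04996) and Cd40 there between the times (1.28, 0.0149) were called, and Cd80 in microglia at day 14 (-1.07, 0.0702) was not. Batch as a term was not run for blood or aged brain, where no date split was used. Few counts lay behind Pdcd1lg2, Cd40 in microglia and the sham levels of monocyte-derived and dendritic cells, of which sham libraries held 43 to 99 and 61 to 86 cells.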
